A study of Hydra vulgaris with 99 samples.

Results

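The loci described here are 44 of 25879 Hydra vulgaris loci. In the first hours after a mid-gastric section, they moved towards a higher level in tips that regenerate a head than in tips of the same level that regenerate a foot. They were chosen on that difference itself. Reads were summed per locus, scaled to CPM (reads of a locus per 1000000 reads of the library) and put on the log2(CPM + 1) scale. The apical tip minus the basal tip was then taken within each replicate letter (A, B and C). The apical shift is the mean of this difference at 4 and 8 h minus its value at 0 h, averaged over the 3 letters. A locus was kept when its shift was at least 0.5, its mean difference at 4 and 8 h was above 0 in all 3 letters, its head and foot means differed by less than 2, and at least 1 group mean reached 3. The rule allowed up to 80 loci, and 44 met it. They are numbered from 1, the largest shift, to 44.

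PolyA-selected RNA of strain Jussy was sequenced from 99 libraries in 33 groups of 3 biological replicates, each library from tissue of 20 to 25 animals, with no drug or genetic manipulation named. Regenerating tips were collected in 3 series at 10 times after section (0 h, then 0.5, 1 and 2 h, then 4, 8 and 16 h, and last 24, 36 and 48 h): tips regenerating apically from the 50% level (apical tips), tips regenerating apically from the 80% level after decapitation (decapitation tips), and tips regenerating basally from the 50% level (basal tips). Homeostatic animals gave the head region, the basal disk with the lower peduncle (foot), and the intact animal. Library totals were between 26401348 and 54273942 reads, with a median of 33209894. In such bulk tissue, fewer cells of a type and less RNA per cell cannot be told apart.

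Hydra is a freshwater cnidarian polyp with a head at its apical end and a foot at its basal end. When its body column is cut, the lower piece rebuilds a head and the upper piece rebuilds a foot, so both kinds of tip meet at one section. An organizer at the tip of the head, in which canonical Wnt signalling is active, directs head formation, and both kinds of wound also share an injury response. The files do not pair the locus identifiers with gene names, and none of the identifiers was found in the RefSeq gene table used here, whose assembly is HydraT2T_AEP. Gene identity, genome position and sequence were therefore not analysed here, and tissue labels could not be set against marker genes.

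The values that chose the loci are given as a description, with no test. The shift had a median of 0.60 and ran between 0.50 and 1.77. The last loci inside the threshold had shifts of 0.506, 0.502 and 0.501, and the first outside had 0.499, 0.493 and 0.491. At 4 and 8 h together the apical tips stood above the basal tips by a median of 0.47, and at 0 h they stood at a median of -0.19. The difference at 0 h was below 0 in 35 of the 44 loci, and in 4 loci it made up 50% or more of the shift. The difference at 4 h had a median of 0.33, with 6 loci at or below 0, and at 8 h a median of 0.55, with every locus above 0.

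The shift came more often with a low basal level than with a high apical level. Between 0 h and the mean of 4 and 8 h, the change in log2(CPM + 1) had a median of 0.08 in apical tips, 0.11 in decapitation tips and -0.52 in basal tips. Over all 20883 loci tested these medians were -0.01, 0.02 and -0.02. In 37 loci the basal tips were lower at 4 to 8 h than at 0 h, and in 25 the apical tips were higher. Both held for 18 loci. A further 19 were lower on both sides of the section and 7 were higher on both sides; in those loci the 2 sides changed unequally in one direction.

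Letter A weighed most in the choice. The median shift was 0.71 in letter A, 0.64 in letter B and 0.42 in letter C. Only 6 loci had a shift of at least 0.5 in all 3 letters, 26 had it in 2 letters and 12 in 1 letter. With letter A left out of the rule, 23 of the 44 still met it, against 32 without letter B and 42 without letter C. The 2 libraries with the lowest mean correlation with their replicates, over the 12569 loci compared, were the letter A libraries at 0 h, with 0.953 for apical tips and 0.958 for basal tips. When only those libraries were left out, 27 of the 44 kept a shift of at least 0.5.

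Member 8 is the clearest case. It had 11.8, 211 and 267 CPM in apical tips at 0 h (letters A, B and C), against 74.5, 110 and 149 CPM in basal tips. Its shift was 2.74 in letter A, -0.18 in letter B and -0.02 in letter C, so its membership rests on a single apical library.

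Libraries that the difference did not use allow a test. Each result below comes from edgeR's quasi-likelihood test in one model of all 99 libraries, with Benjamini-Hochberg adjustment over the 20883 loci tested and a call at an adjusted p under 0.05. All 44 loci passed the filter on low counts. The level criterion looked at all groups, however. Members 3, 9, 14, 27 and 41 reached it only outside the libraries of the difference, head and foot, so their high level at some other time or in decapitation tips was part of the choice.

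At 0.5 to 2 h few of the loci were called different between the 2 sides. At 0.5 h 1 of the 44 loci was higher in apical than in basal tips and none was lower, where 0.125% of all loci tested were higher and 0.23% lower. At 1 and 2 h together 1 was again higher and none lower, where 0.488% of all loci were higher and 0.886% lower. At an unadjusted p under 0.05 the lower counts were 2 at 0.5 h and 1 at 1 and 2 h, and DESeq2 called none lower in either. The median log2 fold change of the 44 was 0.01 at 0.5 h and 0.07 at 1 and 2 h, and over all loci it was 0.00 in both. The change of the difference between 0.5 h and 1 to 2 h was called for no member by edgeR, where 0% of all loci were called; no member reached an unadjusted p under 0.05, and DESeq2 called none. Of all 20883 loci tested by edgeR, 242 had an unadjusted p under 0.05 for this change, and 630 for the difference at 0.5 h. Both fall below the share of 0.05 expected with no difference. These tests were therefore strict, and the lack of calls does not show that the 2 sides were equal. With the replicate letter as a block within each time, 2 members (11 and 30) were higher at 1 and 2 h, where 0.91% of all loci were higher and 1.66% lower.

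**Figure D1:**
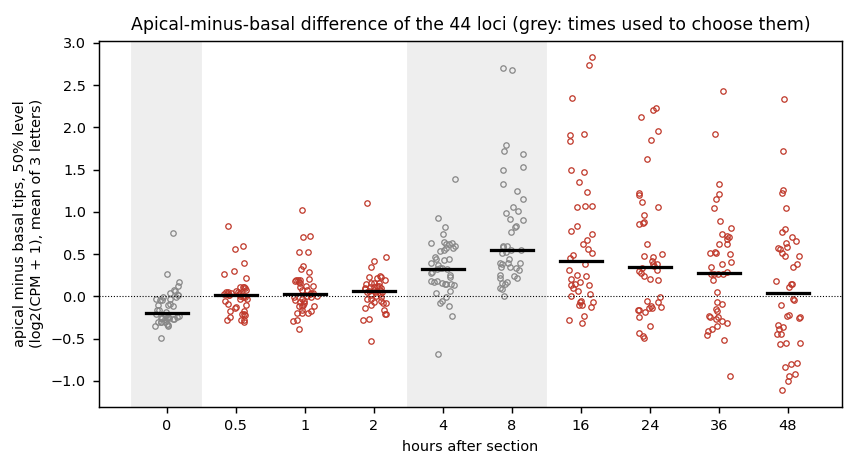
Difference between apical and basal tips of the 50% level for each of the 44 loci (points, mean of the 3 letters) at each time after section, with the median over loci as a bar. Times on grey were used to choose the loci; outside them, the median was 0.02 at 0.5 h, 0.42 at 16 h and 0.04 at 48 h.

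The single member called at 0.5 h and at 1 and 2 h was 11. It was already higher on the apical side at section, a time the rule used, with 22.1, 17.1 and 26.4 CPM in apical tips at 0 h, against 13.3, 10.2 and 14.1 CPM in basal tips. At 0.5 h it had 22.3, 26.8 and 30.2 CPM in apical tips, against 14.6, 14.1 and 14.2 CPM in basal tips. At 1 h it had 28.7, 36.8 and 22.9 CPM in apical tips and 14, 17 and 10.9 CPM in basal tips. The libraries of the 2 sides did not overlap at any of these times, and the log2 fold change was 1.12 ± 0.13 (SE) over 1 and 2 h (adjusted p = 4.2e-10, edgeR). Decapitation tips did not share the high level. They had 10.4, 10.7 and 10.7 CPM at 0.5 h, with a log2 fold change against apical tips of -1.35 ± 0.18 (adjusted p = 4.3e-08, edgeR). At 48 h it had 19.5, 24 and 21.3 CPM in apical tips and 30.6, 32.6 and 21.9 CPM in basal tips. The libraries overlapped there, and the member was not called over 24 to 48 h (log2 fold change 0.00 ± 0.10, adjusted p = 1.00, edgeR). That mean joins differences of opposite sign. On the log2(CPM + 1) scale, apical minus basal tips was 0.63, 0.93 and 1.00 at 24 h (letters A, B and C). It was -0.10, -0.48 and -0.36 at 36 h, and -0.62, -0.43 and -0.04 at 48 h.

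At 0.5 h 2 members were higher (1 and 6) and 1 was lower (11) in decapitation tips than in apical tips, where 1.57% of all loci were higher and 0.757% lower. With the replicate block, members 1, 4, 6, 14 and 21 were higher and members 11 and 30 lower, where 3.09% of all loci were higher and 1.51% lower. Without 1 letter in turn, between 0 and 1 member was higher.

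Early changes within each side were few. Between 0.5 h and 1 to 2 h, apical tips had 3 members that rose (6, 12 and 19) and none that fell, where 0.555% of all loci rose and 0.101% fell. At an unadjusted p under 0.05, 1 member was lower, and DESeq2 called none lower. In basal tips members 6, 12 and 19 rose too, and members 4 and 27 fell, where 0.905% of all loci rose and 0.196% fell. Member 27 passed the level criterion through its level at 0.5 h. Member 19 rose by 1.82 ± 0.38 in apical tips (adjusted p = 0.0035) and by 1.98 ± 0.38 in basal tips (adjusted p = 0.00067) on the log2 scale (edgeR). These counts rest on few libraries: without 1 letter in turn, between 0 and 1 member rose in apical tips.

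Of the times tested, the bias was largest at 16 h. There 17 of the 44 loci were higher in apical than in basal tips and none was lower, where 1.42% of all loci were higher and 2.02% lower. No member was lower at an unadjusted p under 0.05 or by DESeq2, which also called 17 higher. The median log2 fold change was 0.40, and over all loci it was 0.01. The other 27 members had a median of 0.09 and lay between -0.40 and 0.91. The 17 lay between 0.61 and 3.94, with the largest values for member 14 (3.94 ± 0.67), member 4 (2.82 ± 0.26), member 1 (2.75 ± 0.22), member 7 (2.38 ± 0.20) and member 2 (2.17 ± 0.28). When each letter was left out in turn, between 12 and 13 members were called.

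Calls at 16 h that did not survive the loss of some letter were those of members 5, 12, 19, 31, 33 and 34. Their log2 fold changes kept their sign. Member 12 had an adjusted p of 0.26 without letter A, 0.073 without letter B and 0.13 without letter C, and member 31 had 0.091, 0.16 and 0.26 (edgeR). Member 19 missed the threshold without letter B alone (adjusted p = 0.078, edgeR). Member 5 missed it without letter A (0.15) or B (0.11), member 33 without letter A (0.10) or C (0.055), and member 34 without letter B (0.17) or C (0.051). These fits did not pair the letters. With all letters kept and the letter as a block within each time, all of these members were called. Their adjusted p then lay between 2.8e-10 (member 33) and 7.5e-05 (member 31, edgeR). The share of all loci called at 16 h with this block is not given here. At 1 and 2 h the block raised the share of all loci called higher from 0.488% to 0.91%.

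Decapitation tips were also compared with basal tips at that time. This comparison, and the others with 16 h libraries below, were chosen after the difference at 16 h had been seen, and it shares its 3 basal libraries with the comparison of apical and basal tips. In it 16 members were higher and none lower, where 3.58% of all loci were higher and 2.69% lower. No member was lower at an unadjusted p under 0.05 or by DESeq2. The median log2 fold change was 0.53. Member 14 passed the level criterion only through its late level in decapitation tips, so its value here is a description. The members called were 13 of the 17 called in apical tips, with members 32, 35 and 36. With the replicate block, members 35 (adjusted p = 0.022) and 36 (adjusted p = 0.019, edgeR) were called in apical tips as well. The block also called member 30 higher in apical than in basal tips (adjusted p = 0.00033, edgeR). For these calls too, the share of all loci called with the block is not given.

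Between decapitation and apical tips at 16 h, member 11 alone was called, with a log2 fold change of -1.13 ± 0.18 (adjusted p = 4.6e-06, edgeR). No member was higher, where 2.5% of all loci were higher and 0.723% lower. At an unadjusted p under 0.05 there were 2 higher, and DESeq2 called none higher. With the replicate block, member 17 was higher and members 11, 19 and 30 were lower, where 4.23% of all loci were higher and 2.27% lower.

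**Figure D2:**
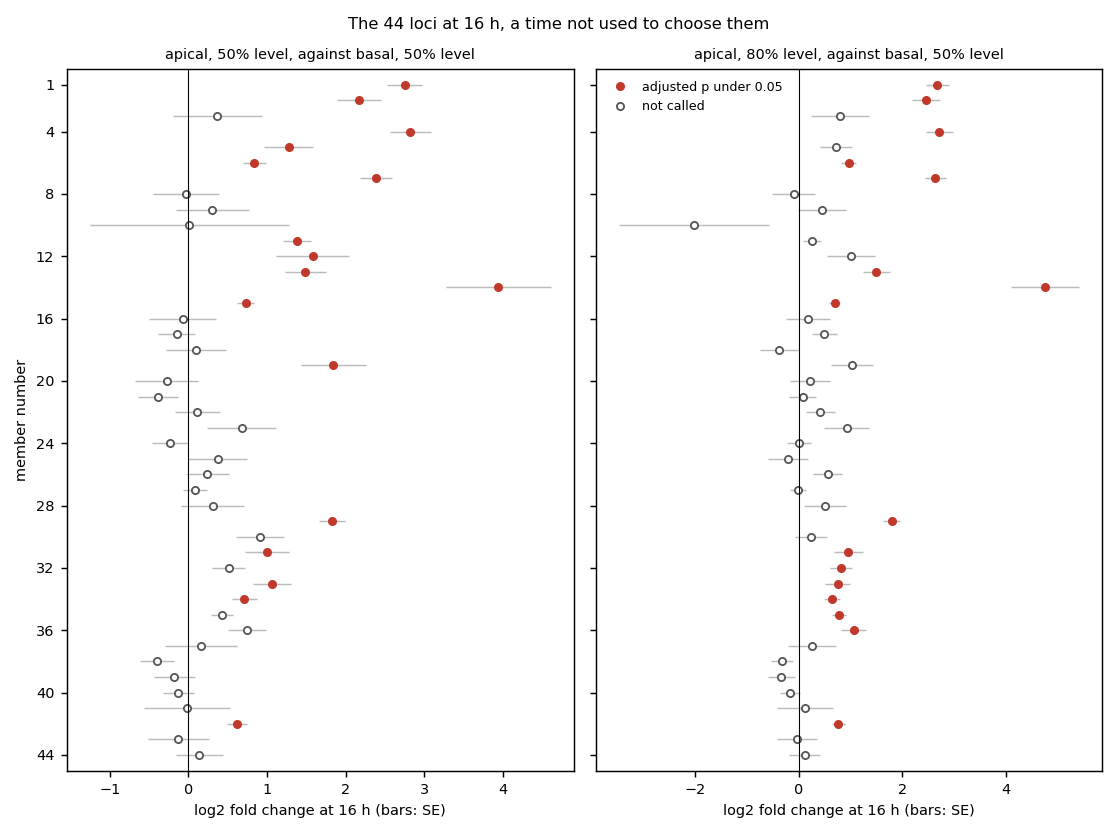
Log2 fold change at 16 h, with its standard error, for members 1 to 44 (top to bottom), in apical tips (left) and decapitation tips (right) against the same basal tips. Filled points passed an adjusted p under 0.05 (edgeR); they are 17 on the left and 16 on the right, all above 0.

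Member 1 shows the split most plainly. At 4 h, a time the rule used, it had 30.3, 38.7 and 25.4 CPM in apical tips and 26.2, 31.1 and 24.6 CPM in basal tips. At 16 h it had 107, 90.6 and 87.7 CPM in apical tips and 130, 84.3 and 61.9 CPM in decapitation tips, against 15.6, 10.9 and 13.9 CPM in basal tips. The lowest library of either head-regenerating series was thus above the highest basal library. By 36 h the basal tips had 46.2, 50.6 and 71.2 CPM, and the apical tips 90.3, 77.7 and 88.9 CPM.

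Member 4 was among the loci with a shared early course. At 2 h it was low in all 3 series, with 24.3, 18.1 and 21.3 CPM in apical tips, 24.2, 25.2 and 20.6 CPM in decapitation tips, and 18.9, 17.1 and 16.9 CPM in basal tips. At 4 h the basal tips were not lower: they had 101, 109 and 113 CPM, against 73, 92.3 and 43.5 CPM in apical tips. The 2 sides then parted, and at 16 h the apical tips had 135, 125 and 151 CPM, against 21.8, 17 and 16.8 CPM in basal tips.

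Member 2 differed mainly in the level of basal tips. At 16 h it had 18.8, 13.7 and 11.7 CPM in apical tips, against 3.61, 2.93 and 2.83 CPM in basal tips. At 0.5 h it had 10.4, 11.2 and 14 CPM in apical tips and 13, 12.9 and 13 CPM in basal tips. The apical libraries of these times overlap, and the basal ones do not.

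Members 7 and 29 differed in what the basal tips did. Member 7 (loc19281) had 25.7, 29.3 and 26.3 CPM in apical tips at 4 h, against 23.3, 22 and 35.3 CPM in basal tips. At 16 h it had 66.4, 69.9 and 69.3 CPM in apical tips, against 10.7, 12.7 and 14.7 CPM in basal tips. The libraries of the 2 sides overlapped at 4 h and not at 16 h. Member 29 stayed between 25.4 and 35.3 CPM in all 30 basal libraries, while apical tips had 109, 95.5 and 86.1 CPM at 16 h and 136, 122 and 124 CPM at 24 h. Decapitation tips at 16 h spread by letter in both, with 116, 84.2 and 51.1 CPM for member 7 and 142, 94 and 58 CPM for member 29. Without letter A, 14 members were called higher in decapitation than in basal tips at that time.

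Member 19 peaked at 4 h in all 3 series. It had 151, 146 and 156 CPM in apical tips, 77, 115 and 126 CPM in decapitation tips, and 120, 108 and 149 CPM in basal tips. At 16 h it had 114, 92 and 68.7 CPM in apical tips and 36.4, 16.5 and 20 CPM in basal tips. Its 0 h level followed the letter more than the series, with 22.2, 33.8 and 9.01 CPM in apical tips, 14.6, 44.6 and 5.15 CPM in decapitation tips, and 25.2, 36.3 and 7.95 CPM in basal tips.

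**Figure D3:**
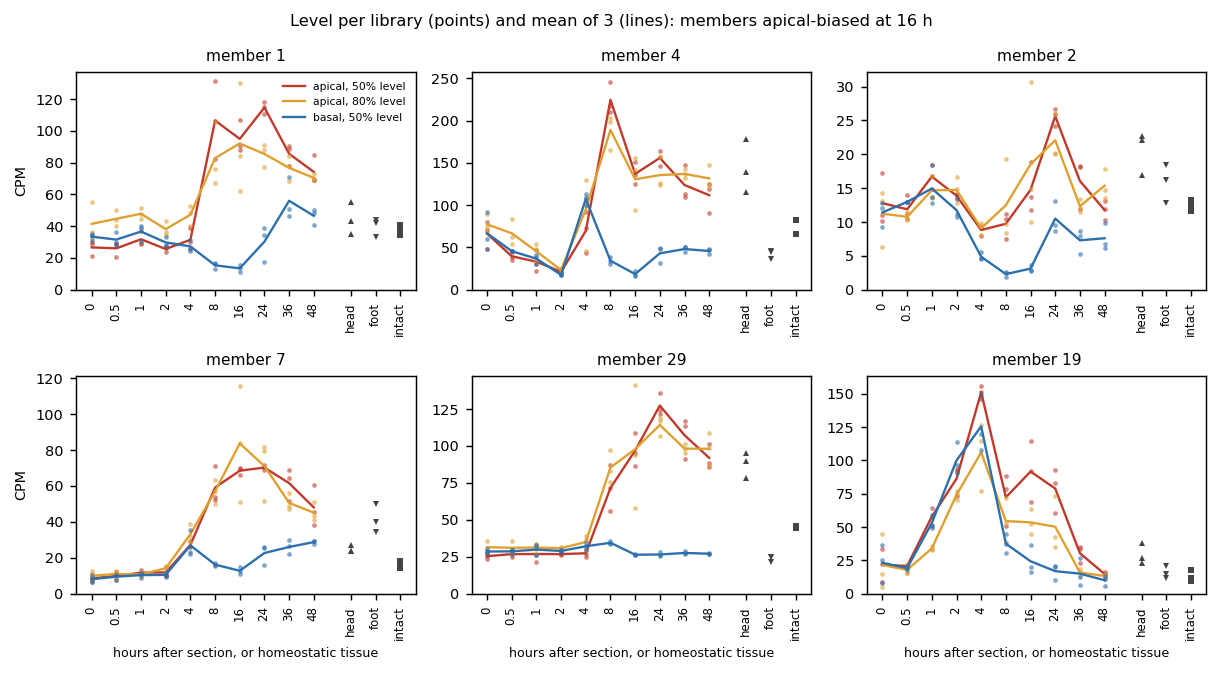
CPM of 6 members called higher in apical than in basal tips at 16 h, in each library (points) with the mean of 3 as a line, for apical, decapitation and basal tips by hours after section (evenly spaced steps), with head, foot and intact libraries at the right. In members 1, 2, 4, 7 and 29 the blue basal line lies below the red and yellow lines from 8 h onwards; member 19 peaks at 4 h in all 3 series.

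Which side moved between 0.5 and 16 h was then tested on each side. In basal tips 12 members fell and none rose, where 4.14% of all loci rose and 1.74% fell. At an unadjusted p under 0.05 there were 2 higher, and DESeq2 called none higher. In apical tips 9 members rose and 3 fell, where 3.17% of all loci rose and 1.66% fell. The median log2 fold change was -0.37 in basal tips and -0.06 in apical tips, against -0.04 and -0.01 over all loci. The basal fallers were 12 with all letters, 6 without letter B and 8 without letter C. Member 27 is among the basal fallers, and its level at 0.5 h in basal tips was the highest group mean that let it pass the level criterion. The apical fallers were members 27, 37 and 38, and between 1 and 2 of the 44 fell there when a letter was left out.

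Members 1 and 4 changed in opposite directions on the 2 sides. Member 1 rose by 1.90 ± 0.21 in apical tips (adjusted p = 1.6e-10) and fell in basal tips, with a log2 fold change of -1.13 ± 0.21 (adjusted p = 8.5e-05, edgeR). Member 4 rose by 1.82 ± 0.25 in apical tips (adjusted p = 7.1e-08) and fell in basal tips, with -1.21 ± 0.25 (adjusted p = 0.00037, edgeR). Members 7, 12, 14, 19, 29, 31 and 42 rose in apical tips with no call in basal tips. Members 2, 6, 11, 15, 23, 30 and 33 fell in basal tips with no call in apical tips. A call on 1 side alone is not a test that the sides differ. The test of that difference, given next, did not call members 12, 19 and 31 of the first list. Of the second list, it did not call members 11, 23, 30 and 33.

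The change of the apical-minus-basal difference between 0.5 and 16 h was itself called for 10 members, all higher, where 0.589% of all loci were higher and 0.517% lower. No member was lower at an unadjusted p under 0.05 or by DESeq2. The median over the 44 was 0.42 on the log2 scale. It was called for between 6 and 7 members without 1 letter in turn.

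**Figure D4:**
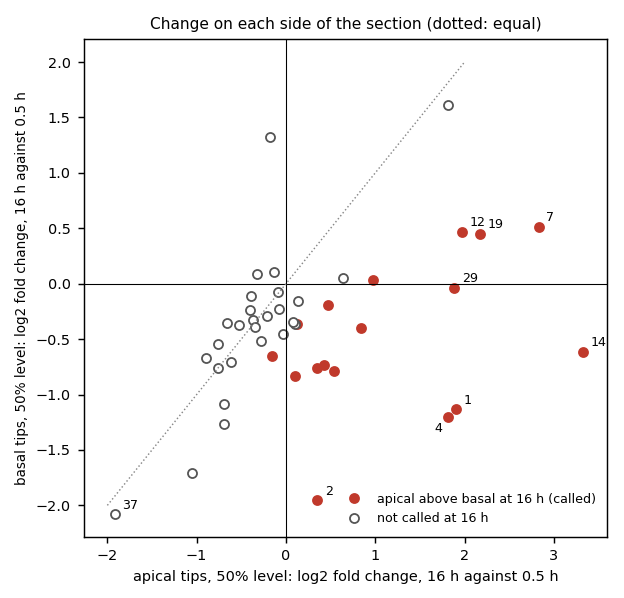
Log2 fold change between 16 h and 0.5 h in apical tips (x axis) and basal tips (y axis) of the 50% level for each of the 44 loci, with equal change on the dotted line. Filled points are the 17 members called higher in apical than in basal tips at 16 h; members 14, 1 and 4 lie furthest below the line, and member 37 lies low on both axes.

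From 24 to 48 h members were called in both directions, the lower ones at about the share of all loci. Of the 44, 17 were higher and 7 lower in apical than in basal tips, where 14.5% of all loci were higher and 13.4% lower. The median log2 fold change was 0.17, and over all loci 0.01. The 16 h and 24 to 48 h comparisons use different libraries of the same series. Members called higher in both numbered 11, which is 64.7% of either list, and none of the 7 lower ones was among the 17 of 16 h. The same overlap over all loci was not counted. The higher ones include member 3, which met the level criterion only through late groups. The lower ones were members 8, 21, 27, 30, 38, 39 and 40. Without letter B there were 4. With the replicate block, member 30 was called higher at 16 h, the opposite direction (log2 fold change 0.87, adjusted p = 0.00033, edgeR).

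The highest at 24 to 48 h were members 14 (4.37 ± 0.36), 29 (1.95 ± 0.10) and 4 (1.46 ± 0.14). The lowest were members 30 (-0.71 ± 0.18), 8 (-0.65 ± 0.24) and 27 (-0.57 ± 0.09). The call of member 8 was lost without letter B (adjusted p = 0.33) and without letter C (adjusted p = 0.16, edgeR). At 48 h member 27 had 3.56, 3.91 and 3.4 CPM in apical tips, against 5.52, 5.81 and 6.02 CPM in basal tips. Member 30 had 4.32, 2.68 and 2.58 CPM in apical tips, against 9.36, 6.81 and 5.93 CPM in basal tips. Member 8 had 83.7, 72.3 and 71.7 CPM in apical tips, against 204, 153 and 142 CPM in basal tips. The libraries of the 2 sides did not overlap in any of these 3 members at that time.

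Member 14 (loc11754) was the scarcest of the 44, with a mean of 1.89 CPM over the 99 libraries, and was nearly silent in basal tips. At 36 h it had 7.25, 5.07 and 5.24 CPM in apical tips and 7.58, 7.47 and 7.05 CPM in decapitation tips, against 0.18, 0.496 and 0.131 CPM in basal tips. The head had 2.68, 4.49 and 1.14 CPM and the foot 0.233, 0.327 and 0.339 CPM. Its level in decapitation tips let it pass the level criterion.

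In decapitation tips between 0 h and 4 to 8 h, 6 of the 44 loci rose and 1 fell, where 2.6% of all loci rose and 1.09% fell. The median log2 fold change was 0.11, and over all loci 0.03. The rising members were 14 (2.50 ± 0.53, adjusted p = 0.0011), 7 (2.12 ± 0.19, adjusted p = 1.5e-13), 19 (1.81 ± 0.38, adjusted p = 0.00094), 13 (0.83 ± 0.22), 29 (0.79 ± 0.14) and 4 (0.79 ± 0.22, edgeR). Member 14 passed the level criterion only through its late level in decapitation tips. Its high level in this series was thus part of the choice, and its rise is a description. All 6 were among the 17 members called at 16 h (35.3% of the 17), an overlap not counted over all loci. Of these calls, that of member 7 alone held when each letter was left out in turn: without letter A the calls of members 4, 13 and 19 were lost, without B those of members 4, 14, 29 and 37, and without C those of members 13 and 19. The adjusted p of the lost calls was between 0.062 (member 19 without letter C) and 0.39 (member 4 without letter B).

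Member 37 (loc23229) was the one that fell, with a log2 fold change of -1.64 ± 0.36 (adjusted p = 0.0022, edgeR) and an adjusted p of 0.08 without letter B. It had 2.6, 1.71 and 2.47 CPM in decapitation tips at 4 h, against 7.32, 8.1 and 5.84 CPM at 0 h. The fall was shared by both sides of the mid-gastric section: at 16 h against 0.5 h it was -1.92 ± 0.44 in apical tips (adjusted p = 0.0023) and -2.08 ± 0.45 in basal tips (adjusted p = 0.00068, edgeR). At 48 h its level split by letter, with 3.98, 18.9 and 16.2 CPM in apical tips, 3.43, 16.9 and 15.2 CPM in decapitation tips, and 7.68, 20.5 and 13.7 CPM in basal tips. The letter A library was the lowest of each series. The letter C library was the highest in head (10.4, 7.46 and 32.5 CPM) and in foot (13.9, 6.86 and 32.5 CPM).

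Later in decapitation tips, at 24 to 48 h against 0 h, 13 members rose and 8 fell, where 11.5% of all loci rose and 11.9% fell. The risers include members 3 and 14, which met the level criterion only through late groups, so their late rise was part of the choice and is a description. Member 3 had 10.1, 4.97 and 5.27 CPM in decapitation tips at 24 h, against 0.773, 0.251 and 1.65 CPM at 0 h. Member 36 rose by 2.02 ± 0.22 (adjusted p = 7.2e-12, edgeR). It had 6.31, 6.68 and 8.63 CPM at 48 h, against 0.966, 1.14 and 1.2 CPM at 0 h.

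**Figure D5:**
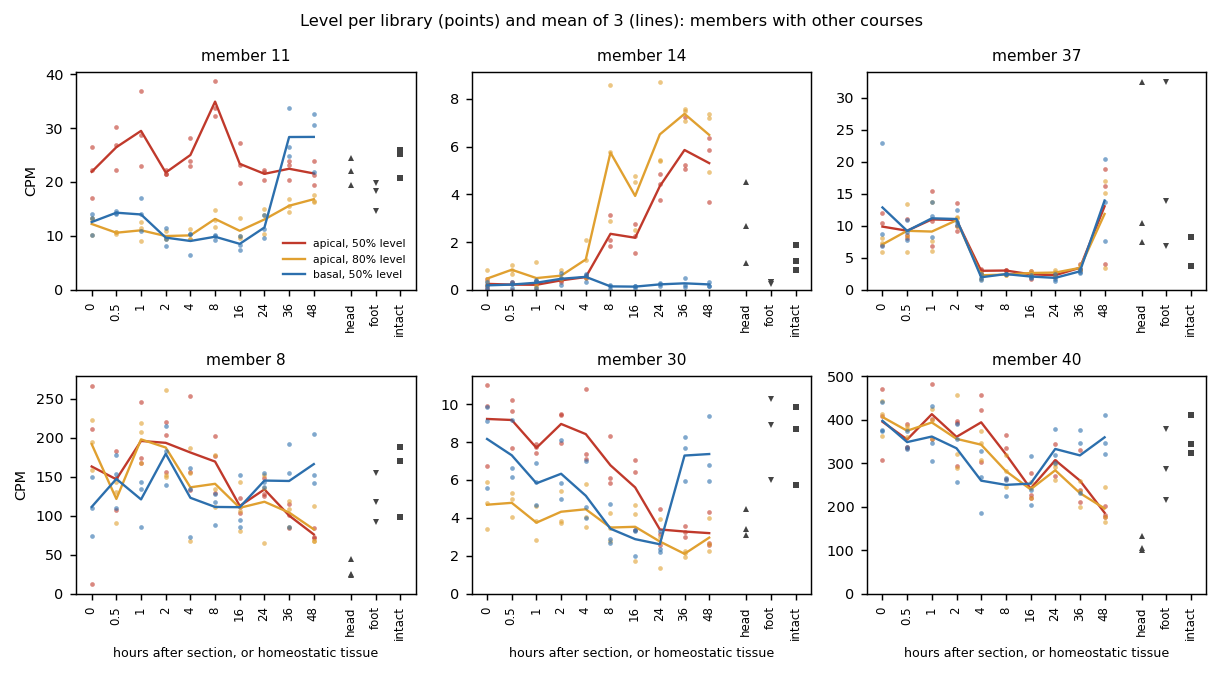
CPM of 6 further members in each library (points) with the mean of 3 as a line, drawn as in the plot of the members biased at 16 h. Member 11 is highest in apical tips among the 3 series until 24 h, member 14 stays near 0 in basal tips, member 37 is low in all 3 series between 4 and 36 h, and members 8, 30 and 40 are lower in apical than in basal tips at 48 h.

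The most abundant members did not carry the late bias. Member 17, with a mean of 633 CPM, had 342, 377 and 330 CPM in apical tips at 16 h, against 359, 459 and 298 CPM in basal tips. The libraries overlapped, with a log2 fold change of -0.15 ± 0.24 (adjusted p = 0.96, edgeR). Member 40, with a mean of 312 CPM, had 202, 176 and 180 CPM in apical tips at 48 h, against 411, 346 and 321 CPM in basal tips.

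The 44 loci were not uniform in homeostatic tissue. The head was above the foot in 24 of them, and head and foot differed by 1 or more on the log2(CPM + 1) scale in 17, within the limit of 2 that the rule set. In decapitation tips the highest of the 10 group means fell at 0 to 2 h for 14 loci, at 4 or 8 h for 7, at 16 or 24 h for 8 and at 36 or 48 h for 15. A single transcript sequence made up 21 of the loci (47.7%), against 37.3% of all loci tested, and the others had up to 14 sequences. Members 8 and 40 carry consecutive locus numbers, and so do members 18 and 25. Over the 99 libraries their log2(CPM + 1) levels correlated with Pearson r = 0.72 and r = 0.78, and whether reads were divided between similar sequences was not tested.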

How the data were processed

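Raw read counts per transcript sequence (79774 sequences, whole numbers in all 99 columns) were used as deposited by the authors. The reads came from polyA-selected, directional libraries per the labels' protocols. The submitters' processing notes name cutadapt 1.11, Salmon 0.7.2 and DESeq2 without a role; how the counts were made is not given in the sources used here. The authors' normalized table was not used. All columns of the count table were mapped to samples (0 not used).

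Counts were summed per locus by the locus token of the identifier. The members and lists were chosen with earlier results of these data known. The fit used R 4.3.3, edgeR 4.0.16 (limma 3.58.1), TMM scaling (factors 0.876 to 1.17), filterByExpr over the 33 groups (20883 loci, 99.98% of reads), one coefficient per group, and glmQLFTest with Benjamini-Hochberg adjustment. The fit was tested on simulated counts drawn independently for each library, with no effect of the letter. That test cannot show how the fit behaves where letters pair the samples. CPM values printed use the column sum, with a pseudocount of 1 on the log2 scale. Python 3.11.15 (pandas 2.3.3, matplotlib 3.10.9) made the tables and figures.

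Members described per library were numbers 1 to 3, the extremes among those called in decapitation tips at 4 to 8 h and between apical and basal tips at 24 to 48 h, the member called at 1 and 2 h, and those with the 2 highest and 2 lowest mean levels. Alternatives were DESeq2 1.42.0, RLE size factors, a newer quasi-likelihood method, no filter, a replicate block, each letter left out, a fold minimum and other member choices. Letters pair the samples of one time: same-letter deviations from the group means correlated over 0.1 in every apical and basal pair at all 10 times (r between 0.11 and 0.77), and in the decapitation pairs tested (0.32 to 0.56). Across times of one series this held for 16 of 135 group pairs. The labels call the replicates biological but do not tie letters to cultures or days, so p-values measure the spread between these samples.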

Additional observations from a re-analysis of the deposited data

Results flagged for a closer look

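For 10 members the change between 0.5 and 16 h differed between apical and basal tips of the 50% level by a test of that difference (edgeR's quasi-likelihood test with Benjamini-Hochberg adjustment, where 0.589% of all loci were called higher and 0.517% lower). The comparison was chosen after the difference at 16 h had been seen. Each value is the log2 change in apical tips minus that in basal tips. It was 3.95 for member 14 (adjusted p = 0.033), 3.03 for member 1 (adjusted p = 6.5e-12) and 3.03 for member 4 (adjusted p = 1.6e-09). It was 2.32 for member 7, 2.30 for member 2 and 1.92 for member 29. It was 1.33 for member 13 (adjusted p = 0.04), 1.16 for member 6, 0.94 for member 15 and 0.66 for member 42 (adjusted p = 0.041). No such test was made at 4 and 8 h, since those libraries had chosen the loci.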

How the results depend on the processing

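No result reversed. Counts of members called stayed within 1.5 times of the reported ones with RLE size factors and with the 40 largest shifts. With DESeq2 or the newer quasi-likelihood method, 2 members in place of 1 were lower in decapitation than in apical tips at 0.5 h, and with no filter 1 was higher in place of 2. With members chosen on TMM-scaled CPM (41 loci, 39 shared), 1 was higher in decapitation than in apical tips at 16 h. With a log2 fold change of at least 1, counts were 7 higher and 0 lower at 24 to 48 h, 0 higher at 0.5 h, 0 falling in basal tips at 1 to 2 h, 3 rising in decapitation tips at 4 to 8 h, 7 rising and 3 falling there at 24 to 48 h, 0 higher in decapitation than in apical tips at 0.5 h, 1 falling in apical tips and 7 in basal tips at 16 h against 0.5 h, and 8 higher in decapitation than in basal tips at 16 h. A replicate block over all times gave 5 members falling in apical tips at 16 h against 0.5 h. The replicate block within each time gave 2 members higher at 1 and 2 h, 5 higher and 2 lower in decapitation than in apical tips at 0.5 h, and 1 higher and 3 lower at 16 h. Across times, where letters did not pair the samples, that block takes the spread between letters as fixed by its construction. It gave 12 rising and 6 falling members in decapitation tips at 4 to 8 h, 15 rising and 9 falling in apical tips and 2 rising in basal tips at 16 h against 0.5 h, and 4 falling in basal tips at 1 to 2 h. It moved no other count by over 1.5 times. The shares of all loci called across times with this block are not given here. Nor are those with a fold minimum or with a letter left out, so these counts have no background beside them. Without 1 letter, the lowest and highest counts were 4 and 8 lower at 24 to 48 h, 0 and 1 higher at 0.5 h, 0 and 1 rising in apical tips at 1 to 2 h, 1 and 2 rising and 0 and 1 falling in basal tips at 1 to 2 h, 3 and 5 rising and 0 and 2 falling in decapitation tips at 4 to 8 h, 0 and 1 higher in decapitation than in apical tips at 0.5 h, 6 and 7 for the change of the difference by 16 h, 1 and 2 falling in apical tips and 6 and 10 in basal tips at 16 h, and 23 and 42 loci kept by the rule. With 2 libraries a group left, and with the few reads of member 14 (0 in 2 of the apical libraries before 2 h), small changes are not detectable at this depth. The cause of these shifts was not tested.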
